A study of Mus musculus with 12 samples.

Results

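The genes described here are 41 genes known for Kupffer cells, other macrophages, monocytes and neutrophils, followed in whole livers of mice with a conditional deletion of Atg7, a gene needed to form autophagosomes. They were chosen by name and fall into 10 groups by role, among them 4 resident Kupffer cell genes (Clec4f, Cd5l, Marco and Vsig4) and 7 genes of recruited or lipid-associated macrophages (Ccr2, Cx3cr1, Itgam, Itgax, Trem2, Gpnmb and Lgals3). Liver RNA of mice 2 months old was measured on 12 MouseWG-6 v2.0 bead arrays, 1 liver to an array. The 4 Alb-Cre:Atg7 FF livers (called Alb-Cre livers below) carried Cre under the albumin promoter, which is active in hepatocytes, and all were male. The 4 Olig1-Cre:Atg7 FF livers (Olig1-Cre livers) carried Cre under Olig1, a gene of the oligodendrocyte lineage, and 1 was male and 3 female. The labels give both Cre groups the genotype Atg7 cKO, and the cells of the liver in which Olig1-Cre was active are not given in the sources used here. The 4 control livers carried the same floxed Atg7 alleles without Cre, 2 being labelled Atg7 FF (Alb Control) and 2 Atg7 FF (Olig1 Control), and 1 was male and 3 female. The tissue was whole liver, so fewer cells of a type and less RNA per cell cannot be told apart.

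Kupffer cells are the resident macrophages of the liver and sit in the sinusoids, where they take up bacteria, immune complexes and dying cells. Clec4f, Vsig4 and Marco encode surface receptors for such uptake, and Cd5l encodes a secreted protein of tissue macrophages. When the liver is injured, monocytes enter from the blood through the chemokine receptor Ccr2 and become macrophages, some of which carry the lipid-sensing receptor Trem2 together with Gpnmb and Lgals3. Neutrophils enter as well and hold the calcium-binding proteins S100a8 and S100a9 in large amounts.

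Values are given as log2 signal after background correction and quantile normalization with the neqc function of limma, on a scale where background lies a little above 4. A gene was called when its adjusted p in limma's test over all genes was below 0.05. Of the 41 genes, 40 had a probe named for them and Cd68 had none here. Cd5l, Itgam, Itgax and Cybb were detected on 0 arrays and Ccr2 on at most 3, so that these 5 were not tested. The other 35 were tested among 10711 genes, 25 of them through 1 probe and 10 as the median of several. On all 12 arrays 26 were detected, and 3 (Trem2, Gpnmb and Cx3cr1) were detected on no control array, so they passed the filter only through the Cre groups. The share of probes detected was 39.8 to 43.9% in Alb-Cre livers, 39.1 to 41.9% in Olig1-Cre livers and 34.2 to 37.8% in control livers. The named probe of Atg7 was detected on 2 of 12 arrays and does not check the deletion. Sex-linked transcripts matched the sex in the labels for all 12 livers. The hepatocyte gene Cps1, an enzyme of the urea cycle, reached 12.58 to 13.27 in control livers, whereas the named probe of Alb lay between 5.26 and 5.78.

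Between Alb-Cre and control livers, 28 of the 35 tested members were higher, 1 was lower and 6 were not called. Over all genes tested 19.5% were called higher and 15.3% lower. The median log2 fold change of the tested members was 1.21, beside -0.00690 over all genes, and it spanned -1.78 for Cd163 to 2.87 for Trem2. In 26 members every Alb-Cre liver lay above every control liver, and in 1 every one lay below, against 19.4% and 15.7% of all genes. Those 26 include the 3 members seen in no control liver. Without these 3, 25 of 32 were called higher, with a median of 1.06. The recruited genes had a median of 2.55 over 4 tested genes, or 2.20 with those 3 at the lower bound of their fold, and the resident genes one of 0.64 over 3, a difference given as a description.

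The same members were compared between Olig1-Cre and control livers. There 25 of 35 were called higher, 1 lower and 9 not called, where 12.8% of all genes were called higher and 8.47% lower. Their median was 1.14 beside -0.000180 over all genes, with 2.54 for the recruited (2.29 at the bounds) and 0.49 for the resident genes. The groups did not overlap in 22 members that were higher and 1 that was lower, against 14.1% and 9.78% of all genes. The members that lay higher include Trem2, Gpnmb and Cx3cr1, which were seen in no control liver. Without these 3, 22 of 32 were called higher, with a median of 1.05. Both comparisons use the same 4 control livers, so they are not independent of each other. Within the first chip, which held 2 Olig1-Cre and 2 control livers, 1 member (Gpnmb) was called higher, where 16 of all genes were. Gpnmb had passed the filter only through the Cre groups. With the 2 controls of the Olig1 line alone 14 members were called higher, and among females alone, 3 livers against 3, 26 were.

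**Figure D1:**
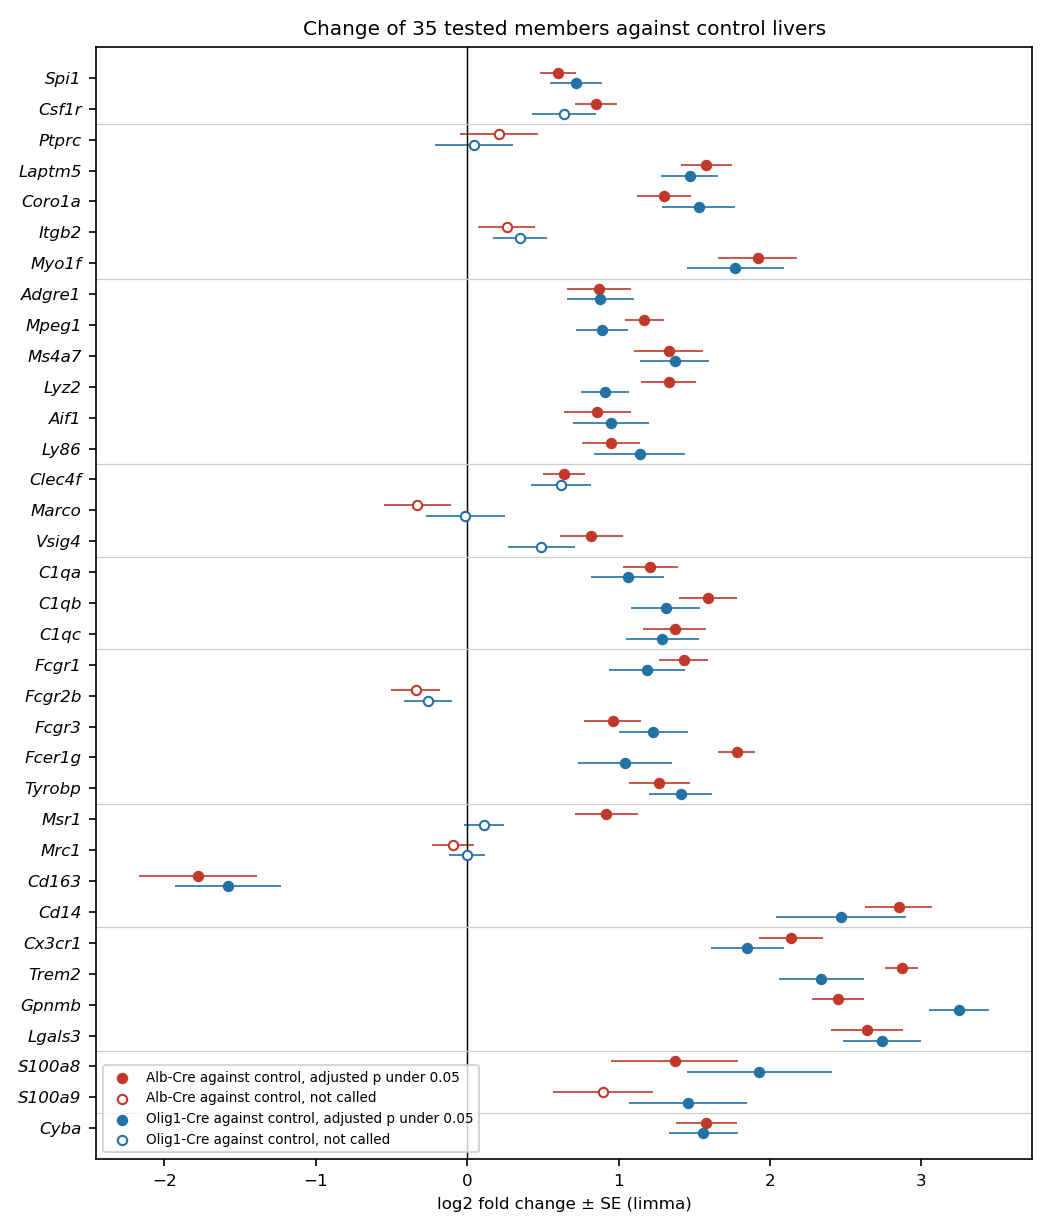
Log2 fold change with its standard error of the 35 tested members for Alb-Cre (red) and Olig1-Cre (blue) against control livers, grouped by role, filled where the adjusted p was below 0.05. Trem2, Gpnmb, Lgals3 and Cd14 lie farthest to the right in both comparisons and Cd163 alone is called on the left.

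The genes of recruited and lipid-associated macrophages had the largest median of the 10 groups in both comparisons. Trem2, a receptor for lipids and lipoproteins on macrophages, measured 7.26, 7.23, 7.03 and 7.10 in Alb-Cre livers, 7.47, 6.02, 6.83 and 6.16 in Olig1-Cre livers and 4.23, 4.26, 4.33 and 4.31 in control livers. No control liver had a detected signal, and the lowest liver of either Cre group lay well above the highest control. The level was at least 5.21-fold higher in Alb-Cre livers and at least 3.59-fold higher in Olig1-Cre livers. Both differences were called, but Trem2 passed the filter only through the Cre groups and its control values were background. No p is therefore given for it, nor for Gpnmb and Cx3cr1 against control below. The bounds on the fold set the Cre livers against the lowest signal detected on each control array, or the probe's own where that was higher. The unprocessed bead signal gives the same order, from 236.3 to 278.9 in Alb-Cre livers, 123.1 to 265.1 in Olig1-Cre livers and 77.3 to 88.9 in control livers.

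Gpnmb, a glycoprotein of lysosome-rich macrophages, was measured by 2 detected probes, whose median was 6.54, 6.48, 7.14 and 7.01 in Alb-Cre livers. It was 7.80, 7.11, 8.07 and 7.37 in Olig1-Cre livers and 4.24, 4.26, 4.40 and 4.45 in control livers. The Cre groups overlapped only in that the highest Alb-Cre liver passed the lowest Olig1-Cre liver, and both lay apart from the controls. No control liver had a detected signal, and the median was at least 4.05-fold higher in Alb-Cre and at least 7.05-fold higher in Olig1-Cre livers. The probes differed in size, the brighter being at least 13.6-fold higher in Alb-Cre and at least 30.6-fold higher in Olig1-Cre livers, the dimmer at least 1.21-fold and 1.62-fold.

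Lgals3, which encodes the sugar-binding protein galectin-3, reached 10.70, 10.28, 11.14 and 10.77 in Alb-Cre livers, 11.29, 10.23, 10.91 and 10.84 in Olig1-Cre livers and 7.59, 8.01, 8.06 and 8.65 in control livers. It was detected in every liver and all 8 Cre livers lay above the 4 controls. Its fold change was 6.25 in Alb-Cre livers (limma adjusted p = 2.67e-05) and 6.67 in Olig1-Cre livers (adjusted p = 0.000243). Cx3cr1, the receptor of the chemokine fractalkine, spanned 6.12 to 7.11 in Alb-Cre, 5.51 to 6.66 in Olig1-Cre and 4.22 to 4.70 in control livers. It was detected in 4 of 4 livers of each Cre group and in 0 of the controls. The level was at least 3.38-fold higher in Alb-Cre and at least 2.77-fold higher in Olig1-Cre livers.

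The remaining recruited genes gave no level. The probe of Itgam and both probes of Itgax, integrin chains known as CD11b and CD11c, were detected in 0 livers, with signals from 78.9 to 95 for Itgam. One probe of Ccr2 was detected in 1 Alb-Cre, 2 Olig1-Cre and 0 control livers, at a mean difference of 0.23 and 0.34 on the log2 scale, and its other probe in 0 livers. The recruited side of the comparison therefore rests on Trem2, Gpnmb, Lgals3 and Cx3cr1, and the monocyte receptor Ccr2 was close to the limit of detection.

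**Figure D2:**
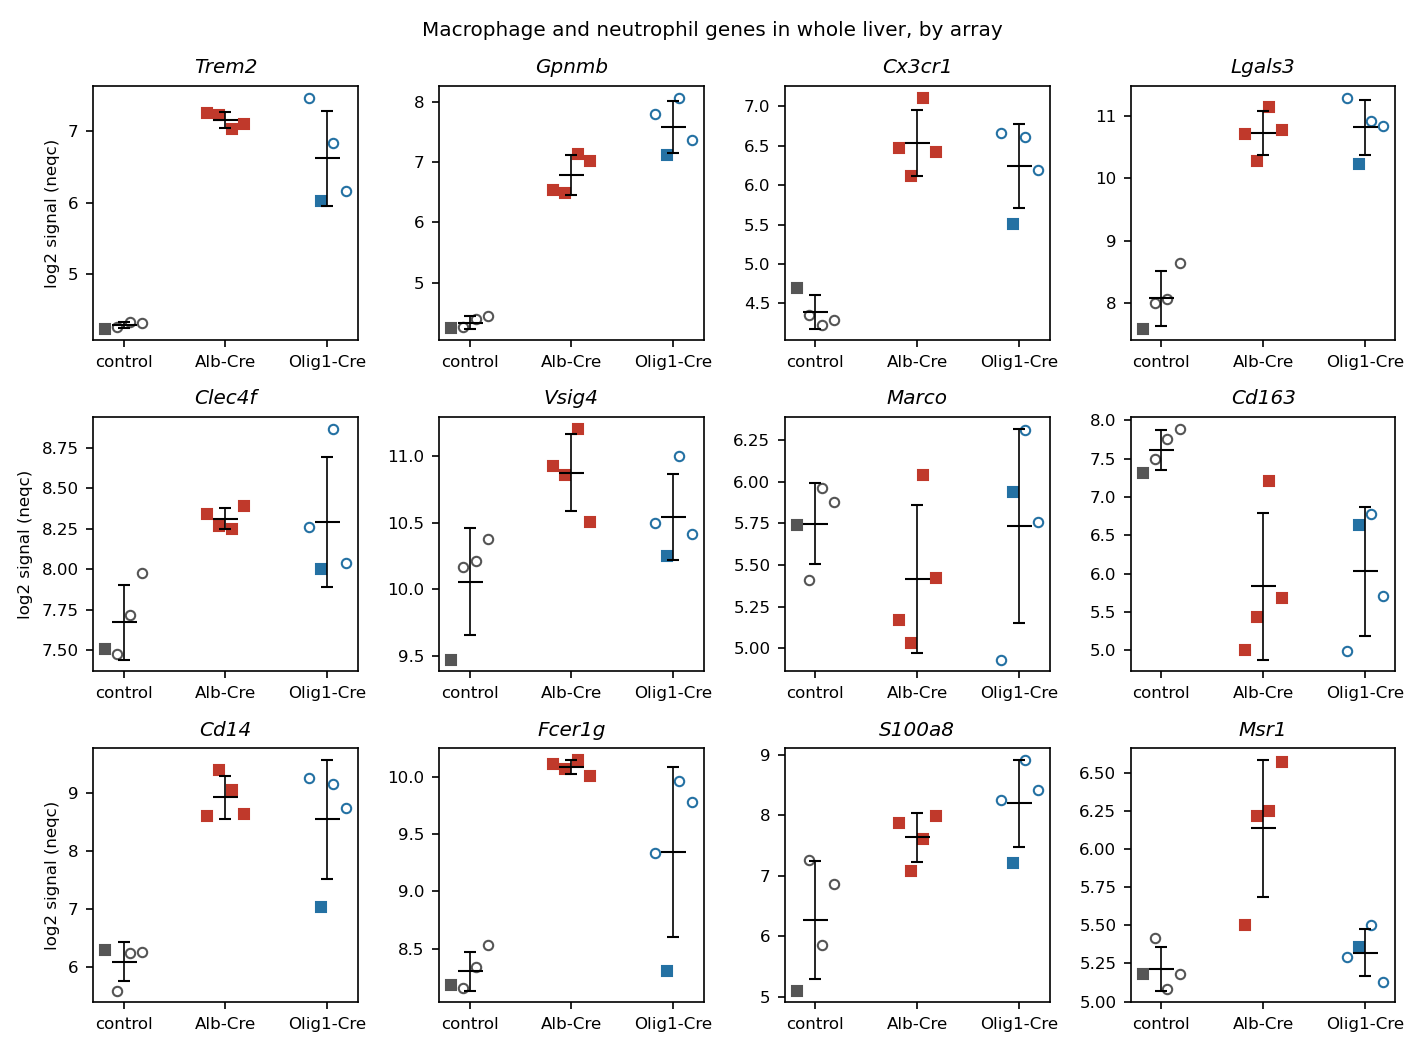
Log2 signal of 12 members in each liver, with the mean and SD of the group in black, filled squares for male and open circles for female livers, each panel with its own scale. Trem2, Gpnmb, Cx3cr1 and Lgals3 separate both Cre groups from control, Marco does not, Cd163 runs the other way, and the male Olig1-Cre liver is the lowest of its group for Trem2, Gpnmb, Cx3cr1, Lgals3, Clec4f, Vsig4, Cd14, Fcer1g and S100a8.

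The promoters of the 3 recruited genes that were detected in no control liver, and of Cd163, the 1 member that fell, are printed as those of members that were seen in the Cre groups alone or that fell. Each runs from 250 bases before to 50 bases after the start of the gene, read 5′ to 3′ on the strand of the gene, from RefSeq on GRCm38.p6. Trem2 lies at chr17:48346151-48346450 (plus strand), Gpnmb at chr6:49036268-49036567 (plus), Cx3cr1 at chr9:120068247-120068546 (minus) and Cd163 at chr6:124304401-124304700 (plus). Capitals mark GAGGAA, the core of sites of PU.1 and other ETS factors, and TGANTCA, the AP-1 site, each searched on both strands.
Trem2: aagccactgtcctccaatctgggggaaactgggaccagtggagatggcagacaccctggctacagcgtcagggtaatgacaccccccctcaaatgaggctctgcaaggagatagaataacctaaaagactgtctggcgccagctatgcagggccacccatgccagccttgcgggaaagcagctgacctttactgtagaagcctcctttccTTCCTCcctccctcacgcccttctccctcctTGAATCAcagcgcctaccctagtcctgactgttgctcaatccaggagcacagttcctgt
Gpnmb: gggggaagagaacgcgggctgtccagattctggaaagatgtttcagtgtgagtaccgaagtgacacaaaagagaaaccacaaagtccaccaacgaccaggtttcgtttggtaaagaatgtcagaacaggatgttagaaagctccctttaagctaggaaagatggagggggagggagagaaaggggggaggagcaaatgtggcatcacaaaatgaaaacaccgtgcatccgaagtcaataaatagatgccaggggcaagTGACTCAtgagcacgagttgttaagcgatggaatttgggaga
Cx3cr1: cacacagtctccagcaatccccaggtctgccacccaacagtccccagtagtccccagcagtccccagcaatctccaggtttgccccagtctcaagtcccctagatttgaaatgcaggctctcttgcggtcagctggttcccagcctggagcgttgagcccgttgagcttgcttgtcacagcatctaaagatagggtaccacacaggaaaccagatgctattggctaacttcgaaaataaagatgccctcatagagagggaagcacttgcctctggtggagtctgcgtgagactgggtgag
Cd163: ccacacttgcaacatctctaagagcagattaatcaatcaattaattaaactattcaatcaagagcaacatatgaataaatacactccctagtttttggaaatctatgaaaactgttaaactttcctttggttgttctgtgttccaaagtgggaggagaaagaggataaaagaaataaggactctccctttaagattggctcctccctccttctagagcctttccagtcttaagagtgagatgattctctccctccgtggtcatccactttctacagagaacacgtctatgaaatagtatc
The Trem2 promoter holds 1 match to each motif, that to GAGGAA on the opposite strand, and they do not overlap. Gpnmb holds 1 match to TGANTCA just past the start of the gene, while Cx3cr1 and Cd163 hold neither. Of the 41 genes 33 had a promoter in the RefSeq table, with 37 starts between them. GAGGAA was in 19 of these 37 promoters (51.4%) beside 28.3% of 32851 mouse promoters of the same length. TGANTCA was in 6 (16.2%) beside 7.81% of all, TTGCNNAA, a C/EBP site, in 5 (13.5%) beside 10.8%, and CACGTG, the E-box read by TFEB and MITF, in 0 beside 7.15%. The motifs to be shown were chosen after the matches were seen, and a match is a description of letters.

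Of the 3 tested resident Kupffer cell genes 2 rose in Alb-Cre livers and 0 were called in Olig1-Cre livers. Clec4f, a lectin found in mice on Kupffer cells, measured 8.34, 8.27, 8.25 and 8.39 in Alb-Cre livers, 8.26, 8.0, 8.87 and 8.04 in Olig1-Cre livers and 7.51, 7.48, 7.72 and 7.98 in control livers. Every Cre liver lay above every control liver, and the highest control came within 0.1 of the lowest Olig1-Cre liver. Clec4f rose 1.56-fold in Alb-Cre livers (limma adjusted p = 0.00516), a call lost within the second chip (0.161, the highest over 25 alternatives). Its fold of 1.54 in Olig1-Cre livers missed the threshold (adjusted p = 0.0546) and passed it without Olig1-Cre replicate 2 (0.0312) or control replicate 4 (0.0474), with a range of 0.0262 to 0.344 over 25 alternatives. Both probes of Clec4f moved alike, by 0.70 and 0.58 on the log2 scale in Alb-Cre livers.

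Vsig4, a complement receptor of resident macrophages, measured 10.93, 10.86, 11.21 and 10.51 in Alb-Cre livers, 10.50, 10.25, 11.00 and 10.42 in Olig1-Cre livers and 9.47, 10.17, 10.21 and 10.38 in control livers. The Alb-Cre livers lay above the controls, while the Olig1-Cre livers overlapped them. Vsig4 rose 1.77-fold in Alb-Cre livers (limma adjusted p = 0.0134), and the 1.40-fold difference in Olig1-Cre livers was not called (adjusted p = 0.142). The call in Alb-Cre livers was lost in 5 of 25 alternatives, which were each chip fitted alone, arrays scaled to 1 75th percentile, males alone and the methods' t-test, with adjusted p from 0.00535 to 0.199.

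Marco, a scavenger receptor for bacteria, measured 5.17, 5.03, 6.04 and 5.42 in Alb-Cre livers, 4.93, 5.94, 6.31 and 5.76 in Olig1-Cre livers and 5.74, 5.41, 5.96 and 5.88 in control livers. The groups overlapped, and the controls were spread less than either Cre group. The log2 difference was -0.33 (SE 0.22, limma adjusted p = 0.268) in Alb-Cre and -0.0134 (SE 0.26, adjusted p = 0.976) in Olig1-Cre livers. Without Alb-Cre replicate 3, the highest of its group, Marco was called lower at -0.55 (adjusted p = 0.0332, the range over 25 alternatives reaching 0.646), and with arrays scaled to 1 median the difference was 0.35. The probe of Cd5l gave signals of 78.3 to 91.5 and was detected in 0 livers of every group. The resident side of the comparison therefore rests on Clec4f, Vsig4 and Marco.

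**Figure D3:**
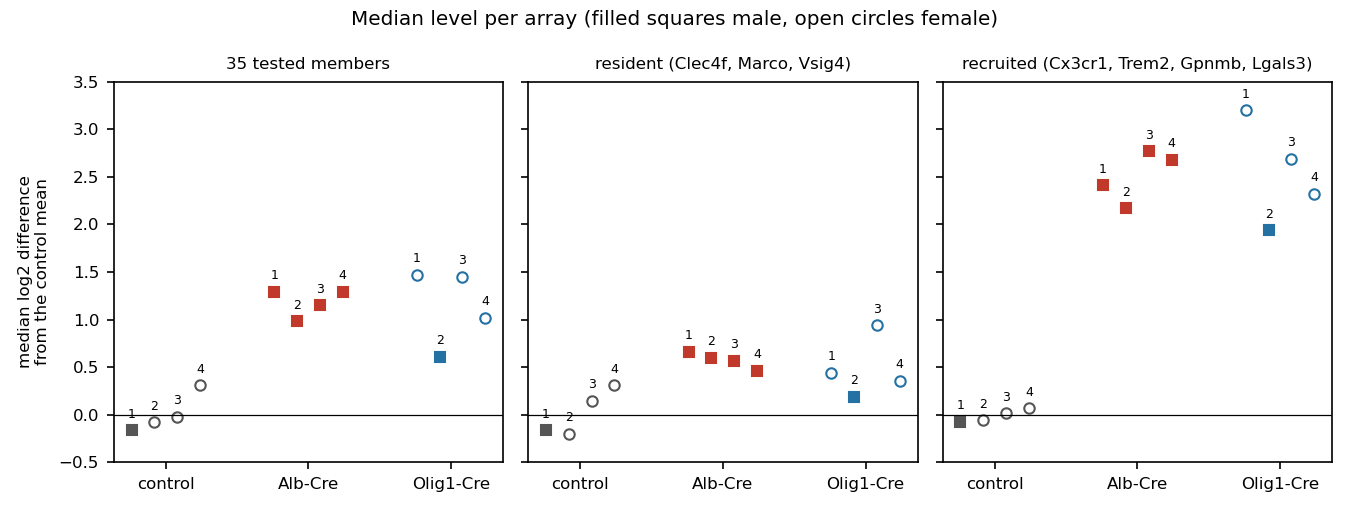
Median log2 difference from the control mean in each liver, over the 35 tested members, the 3 resident and the 4 recruited genes, with replicate numbers above the points. Medians over all tested members run from 0.98 to 1.29 in Alb-Cre, 0.61 to 1.47 in Olig1-Cre and -0.16 to 0.31 in control livers, and 3 of the 4 recruited genes were not above background in the controls.

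The resident and recruited genes were also set against the control mean liver by liver, 3 of the 4 recruited genes being at background in the controls. The median difference of the recruited genes from the control mean was 2.41, 2.17, 2.77 and 2.68 in the Alb-Cre livers, where that of the resident genes was 0.66, 0.60, 0.57 and 0.46. In the Olig1-Cre livers it was 3.20, 1.94, 2.69 and 2.32 for the recruited and 0.44, 0.19, 0.94 and 0.36 for the resident genes. Trem2, Gpnmb and Cx3cr1 passed the filter only through the Cre groups, so these medians are a description and no bound was computed per liver. In the control livers both medians lay between -0.20 and 0.31.

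Further genes of these cells that are not among the 41 were counted the same way. Of 22 tested genes known from Kupffer cells, 9 rose, 1 fell and 12 were not called in Alb-Cre livers, with a median of 0.53. Over all genes 19.5% were called higher and 15.3% lower. Those that rose were led by Siglec1 (1.55), Axl (1.48), Lilrb4a (1.40) and Cd207 (1.38). The 1 that fell was Nr1h3 (-0.58, and -0.53 in Olig1-Cre livers). Timd4, a receptor for dying cells on embryo-derived Kupffer cells, differed by 0.0735 and was not called. Of 18 genes known from lipid-associated macrophages 14 rose and 0 fell, with a median of 1.09. They include Mmp12 and Ccl3, which were detected in no control liver and passed the filter only through the Cre groups. The protease gene Mmp12 was at least 11.3-fold higher in Alb-Cre and at least 11.1-fold higher in Olig1-Cre livers, and Cd9 (3.58), Lpl (3.15) and Cd63 (2.74) followed on the log2 scale. Cd9, Lpl and Cd63 are also made by other liver cells. In Olig1-Cre livers the counts were 9 higher and 1 lower of 22, and 13 higher and 0 lower of 18. There 12.8% of all genes were called higher and 8.47% lower.

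The lineage factor and the growth factor receptor of macrophages were both higher in Alb-Cre livers. Spi1 encodes PU.1, the transcription factor that macrophages need to form. It measured 5.45, 5.17, 5.37 and 5.38 in Alb-Cre livers, 5.95, 5.17, 5.52 and 5.17 in Olig1-Cre livers and 4.70, 4.75, 4.82 and 4.68 in control livers. Only 2 of the 4 control livers had a detected signal, and the control values lay close to background. All 8 Cre livers lay above the controls, by 1.52-fold in Alb-Cre (limma adjusted p = 0.00262) and 1.64-fold in Olig1-Cre livers (adjusted p = 0.0194). The call in Olig1-Cre livers was lost without Olig1-Cre replicate 3 (adjusted p = 0.0583) and in 8 of 25 alternatives in all. That in Alb-Cre livers was lost in 4 of 25, with adjusted p up to 0.260.

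Csf1r, the receptor of the macrophage growth factor CSF1, measured 7.83, 7.49, 7.85 and 7.76 in Alb-Cre livers, 7.49, 7.14, 8.16 and 7.30 in Olig1-Cre livers and 6.98, 6.66, 7.04 and 6.84 in control livers. The groups did not overlap in either comparison. Csf1r rose 1.80-fold in Alb-Cre livers (limma adjusted p = 0.000973). Its 1.56-fold difference in Olig1-Cre livers was not called (adjusted p = 0.0533). It was called in 8 of 25 alternatives, such as without Olig1-Cre replicate 2 (0.0213) or with the brightest probe (0.0118), over a range up to 0.469. Of 8 tested growth factors and receptors of myeloid cells outside the list, 5 rose and 0 fell in Alb-Cre livers, among them Csf2ra (1.63), Il3ra (1.22), Csf2rb2 (at least 1.41-fold) and Tgfb1 (0.82). Csf2rb2 was detected in no control liver and passed the filter only through the Cre groups. The Csf1 gene differed by 0.50 (limma adjusted p = 0.0457). In Olig1-Cre livers 4 of 8 rose.

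Among genes common to leukocytes, 3 of 5 rose in both comparisons and 0 fell. Myo1f, a myosin of white blood cells, measured 7.46, 6.96, 7.17 and 7.08 in Alb-Cre livers, 7.46, 6.26, 7.10 and 7.26 in Olig1-Cre livers and 4.36, 5.43, 5.51 and 5.68 in control livers. Control replicate 1 was the lowest liver by over 1 log2 unit, and the Cre livers lay above all controls. The fold change was 3.79 in Alb-Cre (limma adjusted p = 0.000364) and 3.42 in Olig1-Cre livers (adjusted p = 0.00604).

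Laptm5, a lysosomal protein of leukocytes, measured 10.89, 10.85, 11.43 and 10.89 in Alb-Cre livers, 11.02, 10.40, 11.26 and 10.94 in Olig1-Cre livers and 9.30, 9.23, 9.62 and 9.60 in control livers. It rose 2.99-fold and 2.77-fold (adjusted p = 7.16e-05 and 0.00126, limma), with no overlap. Coro1a, an actin-binding protein of leukocytes, measured 7.20, 6.88, 6.82 and 6.76 in Alb-Cre livers, 7.61, 6.52, 7.28 and 7.16 in Olig1-Cre livers and 5.29, 5.59, 5.46 and 6.11 in control livers. Again every Cre liver lay above the controls, by 2.47-fold in Alb-Cre and 2.89-fold in Olig1-Cre livers (adjusted p = 0.000451 and 0.00331). Ptprc, the leukocyte antigen CD45, and the integrin chain Itgb2 were close to background, at 4.18 to 5.38 and 4.43 to 5.39, and neither was called. Ptprc was called higher in Alb-Cre livers, at 0.50 on the log2 scale, only without control replicate 1 (adjusted p = 0.0286, the range over 24 alternatives reaching 0.901).

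All 6 tested genes of macrophages in general rose in both Cre groups. Lyz2, which encodes lysozyme, measured 10.38, 9.96, 10.49 and 10.43 in Alb-Cre livers, 9.85, 9.64, 10.04 and 10.02 in Olig1-Cre livers and 8.64, 8.86, 9.13 and 9.29 in control livers. All Cre livers exceeded the controls, by 2.52-fold in Alb-Cre (limma adjusted p = 0.000293) and 1.88-fold in Olig1-Cre livers (adjusted p = 0.00577), calls lost without a filter on dim probes (0.103 and 0.0624). Ms4a7, a membrane protein of macrophages, measured 6.47, 6.06, 5.87 and 6.40 in Alb-Cre livers, 6.59, 5.87, 6.20 and 6.29 in Olig1-Cre livers and 4.29, 4.99, 4.82 and 5.39 in control livers. It too was without overlap and rose 2.52-fold and 2.58-fold (limma adjusted p = 0.00142 and 0.00431). These values lie midway between 2 probes that differed, 1 by 2.31 and 2.38 on the log2 scale and the other, detected in no control liver, by 0.35 and 0.36. Without a filter on dim probes Ms4a7 differed by 0.18 and 0.20 and was not called (adjusted p = 0.0935 and 0.179, the highest over 25 alternatives each being 0.117 and 0.225).

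Mpeg1, which encodes the pore-forming protein perforin-2 of macrophages, measured 8.06, 7.83, 7.94 and 7.94 in Alb-Cre livers, 7.38, 7.42, 7.90 and 7.94 in Olig1-Cre livers and 7.07, 6.58, 6.70 and 6.73 in control livers. The Alb-Cre livers lay close together, and the fold change was 2.25 there and 1.85 in Olig1-Cre livers (limma adjusted p = 0.000126 and 0.00759). Its brighter probe differed by 1.74 and 1.76 on the log2 scale and its dimmer probe, detected in 1 control liver, by 0.60 and 0.0186. Adgre1, the macrophage antigen F4/80, rose 1.82-fold and 1.84-fold, Aif1 1.82-fold and 1.93-fold, and Ly86 1.93-fold and 2.20-fold. In Olig1-Cre livers the calls of Adgre1, Aif1 and Ly86 were each lost without Olig1-Cre replicate 1 or 3 or control replicate 1 or 2, and those of Aif1 and Ly86 also without control replicate 3, at adjusted p between 0.0524 and 0.0791.

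The genes of the 3 chains of C1q rose together. C1q starts the classical complement cascade, and macrophages are its main source. C1qb measured 10.83, 10.73, 10.60 and 10.59 in Alb-Cre livers, 10.69, 10.04, 10.73 and 10.16 in Olig1-Cre livers and 9.17, 8.61, 9.04 and 9.56 in control livers. C1qc measured 10.65, 10.61, 10.06 and 10.41 in Alb-Cre livers, 10.72, 9.90, 10.72 and 10.08 in Olig1-Cre livers and 8.85, 8.78, 9.01 and 9.62 in control livers. C1qa measured 8.85, 8.59, 8.38 and 8.47 in Alb-Cre livers, 8.78, 7.95, 8.81 and 8.15 in Olig1-Cre livers and 7.16, 7.07, 7.38 and 7.83 in control livers. For each chain the Cre livers exceeded all controls, control replicate 4 was the highest control, and Olig1-Cre replicate 2 was the lowest Cre liver. In Alb-Cre livers C1qb rose 3.02-fold, C1qc 2.58-fold and C1qa 2.31-fold (limma adjusted p = 0.000141, 0.000640 and 0.000651). In Olig1-Cre livers they rose 2.47-fold, 2.45-fold and 2.09-fold (adjusted p = 0.00488, 0.00665 and 0.0130). Within chip 2 alone C1qc (0.0638 and 0.0644) and C1qa (0.0523 and 0.0928) missed the threshold in both comparisons.

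Of the Fc receptors and their adaptors, which carry ITAM signalling motifs, 4 of 5 rose in each comparison. Fcer1g, the signalling chain shared by activating Fc receptors, measured 10.11, 10.07, 10.15 and 10.01 in Alb-Cre livers, 9.33, 8.30, 9.96 and 9.78 in Olig1-Cre livers and 8.18, 8.16, 8.34 and 8.53 in control livers. The Alb-Cre livers differed from each other by less than 0.15, whereas Olig1-Cre replicate 2 lay among the controls. Fcer1g rose 3.44-fold in Alb-Cre livers (limma adjusted p = 5.14e-06) and 2.05-fold in Olig1-Cre livers (adjusted p = 0.0399). The second call was lost when any single liver but Olig1-Cre replicate 2 was left out, with adjusted p from 0.0551 to 0.110.

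Fcgr1, the high-affinity receptor for IgG, measured 6.59, 6.26, 6.08 and 6.69 in Alb-Cre livers, 6.51, 5.59, 6.79 and 5.80 in Olig1-Cre livers and 5.02, 5.13, 4.86 and 4.91 in control livers. It rose 2.69-fold and 2.29-fold (adjusted p = 9.36e-05 and 0.00988, limma), without overlap. Tyrobp, the adaptor DAP12 through which TREM2 signals, measured 7.68, 7.33, 7.92 and 8.01 in Alb-Cre livers, 8.14, 7.43, 8.11 and 7.83 in Olig1-Cre livers and 6.38, 6.31, 6.22 and 6.97 in control livers. It rose 2.40-fold and 2.65-fold (adjusted p = 0.000913 and 0.00245), also without overlap. Fcgr3, an activating IgG receptor, rose 1.95-fold and 2.35-fold. The inhibitory receptor Fcgr2b, which in the liver is known chiefly from sinusoidal endothelium, differed by -0.34 and -0.26 on the log2 scale and was not called (adjusted p = 0.118 and 0.272).

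Genes that act downstream of ITAM receptors and integrins and lie outside the list were counted as well. Of 15 tested, 13 rose and 0 fell in Alb-Cre livers with a median of 0.99, and 12 rose and 0 fell in Olig1-Cre livers with a median of 1.01. The phospholipase gene Plcg2 differed by 1.36, the exchange factor Vav1 by 1.24, Arhgdib by 1.24 and Was, the regulator of actin assembly, by 1.08 in Alb-Cre livers. Dock2, counted among the 13, was detected in no control liver, and its bound gave no rise. The kinase gene Syk was detected in 0 livers at its named probe.

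The scavenger and endotoxin receptors went in different directions. Cd14, the co-receptor for bacterial endotoxin, measured 8.61, 9.41, 9.05 and 8.65 in Alb-Cre livers, 9.26, 7.03, 9.16 and 8.74 in Olig1-Cre livers and 6.28, 5.58, 6.23 and 6.25 in control livers. Olig1-Cre replicate 2 stood below the other Cre livers but above the controls. The fold change was 7.20 in Alb-Cre (limma adjusted p = 9.66e-06) and 5.52 in Olig1-Cre livers (adjusted p = 0.00509). Hepatocytes can also make CD14.

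Cd163, the receptor that macrophages use to take up hemoglobin bound to haptoglobin, was the only member called lower. It measured 5.01, 5.44, 7.21 and 5.68 in Alb-Cre livers, 4.99, 6.64, 6.78 and 5.71 in Olig1-Cre livers and 7.31, 7.50, 7.75 and 7.89 in control livers. Every Cre liver lay below every control, Alb-Cre replicate 3 by a narrow margin. The log2 fold change was -1.78 (SE 0.39, limma adjusted p = 0.00568) in Alb-Cre and -1.58 (SE 0.35, adjusted p = 0.0135) in Olig1-Cre livers. The unprocessed signals of its probe overlapped, from 114.2 to 288 in Alb-Cre livers, 106.5 to 211 in Olig1-Cre livers and 118.3 to 258.2 in control livers. The lowest control signal came from replicate 1, the array with the lowest median signal, and the other controls ran from 206.5 to 258.2. With arrays scaled to 1 median the log2 differences were -0.96 and -0.99 and neither was called (adjusted p = 0.146 and 0.149), and with sex as a covariate the difference in Alb-Cre livers was -1.47 (adjusted p = 0.129). Over 25 alternatives each, the adjusted p ran from 6.80e-05 to 0.220 in Alb-Cre and from 0.00549 to 0.322 in Olig1-Cre livers.

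Msr1, the scavenger receptor for modified lipoproteins, measured 5.50, 6.22, 6.25 and 6.57 in Alb-Cre livers, 5.29, 5.36, 5.50 and 5.13 in Olig1-Cre livers and 5.18, 5.42, 5.08 and 5.18 in control livers. Alb-Cre livers exceeded the controls, although replicate 1 by less than 0.1, and the Olig1-Cre livers overlapped the controls. Msr1 rose 1.89-fold in Alb-Cre livers (limma adjusted p = 0.00649), a call lost with sex as a covariate (0.96 on the log2 scale, 0.0751), within chip 1 (0.56, 0.224) and in males alone (0.86, 0.0937) among 25 alternatives. The log2 difference of 0.11 in Olig1-Cre livers was not called (adjusted p = 0.582). Mrc1, the mannose receptor, which sinusoidal endothelium also carries, differed by -0.0942 and -0.00178 (adjusted p = 0.630 and 0.992).

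Of the 2 calprotectin genes 1 was called higher in Alb-Cre and 2 in Olig1-Cre livers, and for both the groups overlapped in each comparison. S100a8 measured 7.88, 7.08, 7.61 and 7.98 in Alb-Cre livers, 8.25, 7.21, 8.92 and 8.42 in Olig1-Cre livers and 5.10, 7.26, 5.85 and 6.87 in control livers. The controls ranged over more than 2 log2 units, and control replicate 2 overlapped both Cre groups. The fold change was 2.58 in Alb-Cre livers (limma adjusted p = 0.0276) and 3.81 in Olig1-Cre livers (adjusted p = 0.0208). The call in Alb-Cre livers was lost without Alb-Cre replicate 1, 3 or 4 or control replicate 3 (log2 1.23 to 1.38, adjusted p 0.0528 to 0.0760). That in Olig1-Cre livers was lost without Olig1-Cre replicate 1, 3 or 4 or control replicate 3 (log2 1.69 to 1.91, adjusted p 0.0552 to 0.0636).

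S100a9, the partner of S100a8, spanned 5.48 to 6.65 in Alb-Cre livers, 5.73 to 7.50 in Olig1-Cre livers and 4.68 to 5.98 in control livers. It was called higher in Olig1-Cre livers (2.75-fold, limma adjusted p = 0.0282) and not in Alb-Cre livers (1.87-fold, adjusted p = 0.0584). The second difference passed the threshold without Alb-Cre replicate 2 (0.0222) or control replicate 2 (0.0296), with a range of 0.00962 to 0.512 over 25 alternatives, and the first was lost without Olig1-Cre replicate 1, 3 or 4 or control replicate 1 or 3 (adjusted p 0.0640 to 0.0819). Of 12 tested genes of neutrophils outside the list, 2 rose and 0 fell in Alb-Cre livers, which were Hp (0.70) and Il1b (0.55). That share is close to the 19.5% of all genes called higher. In Olig1-Cre livers, where 12.8% of all genes were called higher, 5 rose and 0 fell. These were Il1b (1.21), Fpr2 (0.97), Mpo (0.77), Ltf (0.71) and Hp (0.58), with Mpo and Ltf close to background in control livers. Hepatocytes make haptoglobin, the product of Hp. The receptor Cxcr2 and the granule genes Mmp8 and Ctsg were detected in 0 livers, and the granule genes Ngp, Ltf, Camp and Mpo were detected on 4 to 6 arrays.

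Of the 2 membrane subunits of the NADPH oxidase, Cyba was detected and Cybb was not. Cyba measured 9.30, 8.92, 9.17 and 8.74 in Alb-Cre livers, 9.38, 8.60, 9.35 and 8.74 in Olig1-Cre livers and 7.18, 7.21, 7.46 and 7.98 in control livers. All Cre livers lay above the controls, by 2.98-fold in Alb-Cre and 2.95-fold in Olig1-Cre livers (limma adjusted p = 0.000223 and 0.00270). Of the cytosolic parts, Ncf4 differed by 1.77 and Rac2 by 0.89 in Alb-Cre livers and both were called, while Ncf1 (0.31) was not.

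Monocyte genes and transcription factors outside the list were counted too. Of 11 monocyte genes 5 rose and 0 fell in Alb-Cre livers, where 19.5% of all genes were called higher. In Olig1-Cre livers 6 rose and 1 fell, where 12.8% of all genes were called higher and 8.47% lower. The largest called changes in Alb-Cre livers were those of Ly6c1 (2.48), Ms4a6d (1.64), Plac8 (1.43) and Treml4 (0.73). Ly6c1 is also carried by endothelial cells. Of 11 myeloid transcription factors 2 rose, Irf8 (1.02) and Ikzf1 (0.80), and 2 fell, Cebpa (-0.88) and Cebpe (-0.69), in Alb-Cre livers, shares close to the 19.5% and 15.3% of all genes. In Olig1-Cre livers 2 rose and 1 fell. Cebpa is also a factor of hepatocytes.

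The difference between the Cre groups was tested directly. Of 35 members 0 were called, where 0.0747% of all genes were called higher and 0.0840% lower in Alb-Cre than in Olig1-Cre livers. At an unadjusted p below 0.05 limma gave 3 members higher and 1 lower, and the methods' t-test 2 and 1, with 0 after Benjamini-Hochberg adjustment. Over all genes limma gave such a p for 14.4%, both directions together, so the members did not stand out. The median difference was 0.0144, with 18 members above 0 and 17 below. For 27 of 35 members the 95% interval lay within -1 and 1, so a change of more than 2-fold lay outside it, while for 8 it reached further.

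The members with the most separate values were these 4. Msr1 differed by 0.81 (95% interval 0.35 to 1.28, limma adjusted p = 0.142), Gpnmb by -0.80 (-1.32 to -0.28, adjusted p = 0.178), Lyz2 by 0.42 (0.0863 to 0.76, adjusted p = 0.252) and Fcer1g by 0.74 (0.0624 to 1.42, adjusted p = 0.307). Only Fcer1g had groups that did not overlap, which 4.37% of all genes had in that direction. Trem2 differed by 0.53 (-0.0905 to 1.16) and Cd14 by 0.38 (-0.60 to 1.36). With sex as a covariate, a fit in which only Olig1-Cre replicate 2 stands for the males of its group, Fcer1g (1.78, adjusted p = 0.0137) and Cd14 (1.90, adjusted p = 0.0276) were called higher in Alb-Cre livers, and in 0 of the other 22 alternatives. In that fit the median of the members was 0.48.

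**Figure D4:**
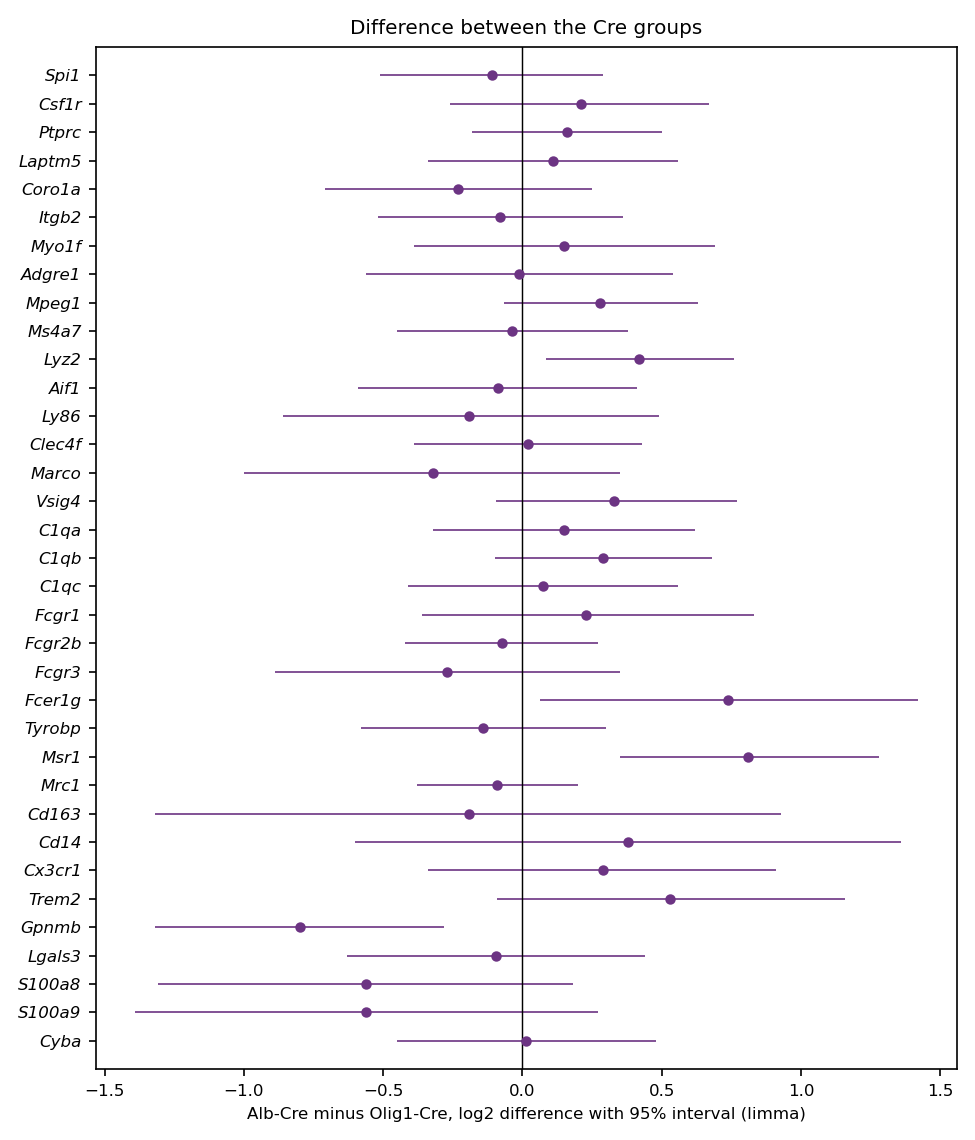
Alb-Cre minus Olig1-Cre difference of the 35 tested members on the log2 scale with its 95% interval from limma. Msr1, Fcer1g and Lyz2 have intervals above 0 and Gpnmb one below 0, and none passed the adjusted threshold.

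Sex was not balanced between the groups, and the members were compared between males and females. Among the 8 control and Olig1-Cre livers, fitted with group as a covariate, 29 of 35 members were lower in males, with a median of -0.42 beside -0.0179 over all genes and a range of -1.44 to 0.68. Of these 1 was called lower (Myo1f, -1.10, limma adjusted p = 0.0133) and 0 higher, where 0.215% of all genes were called in each direction, and 14 had an unadjusted p below 0.05. The comparison rests on 1 male in each group. The male control, replicate 1, was also the dimmest array, with a median bead signal of 79.8 and 34.2% of probes detected. The other controls had median signals of 89.5 to 90.6, so sex and array brightness cannot be told apart among the controls. The male Olig1-Cre liver was the lowest of its group for 27 of 35 members, as it was for 32.5% of all genes, and the male control for 18 of 35, beside 35.8% of all genes. With sex as a covariate the median of the members between Alb-Cre and control livers was 1.40, and 26 were called higher.

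Markers of other cells were counted beside the members, and their part in the results was not tested. Over all genes 19.5% were called higher and 15.3% lower in Alb-Cre livers, and 12.8% and 8.47% in Olig1-Cre livers. Hepatocyte markers fell in 6 of 11 tested genes in Alb-Cre and 3 of 11 in Olig1-Cre livers and rose in 0. Those that fell in Alb-Cre livers included Pck1 (-2.27), Serpina1a (-1.25), Cps1 (-1.01) and Alb (-0.79). The Alb probe lay near background, at 4.44 to 4.79 in Alb-Cre and 5.26 to 5.78 in control livers. Apoa1 (-0.0622), Apoa2 (-0.0562), Ttr (-0.17), Hnf4a (-0.37) and Arg1 (-0.43) were not called in Alb-Cre livers. T cell markers rose in 2 of 6 and 4 of 6, and their summed linear level over background ran from 244 to 308 in Alb-Cre, 263 to 357 in Olig1-Cre and 151 to 264 in control livers. The brightest of these 6 was Cd8b1, at 6.67 to 7.16 in control livers. For the 35 members the sum ran from 14900 to 17700, 10500 to 18500 and 5410 to 8190. The sums cover different numbers of genes and do not measure the amounts of the cells. Cd4, Cd8a, Ms4a1, Ncr1 and Gzmb were detected in 0 livers. B cell markers rose in 1 of 3 in each comparison, and NK cell markers rose in 1 and fell in 1 of 6. The NK shares are close to those of all genes in Alb-Cre livers, and neither list is read as a result about its cells. Endothelial markers rose in 1 and fell in 3 of 9 in each comparison. In Alb-Cre livers Lyve1 rose (0.74) and Oit3 (-0.95) and Stab2 (-0.88) were among those that fell. Stab1 (-0.0124), Cdh5 (-0.00328) and Pecam1 (-0.19) were among those not called.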

How the data were processed

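Liver RNA was labelled with biotin and hybridized to MouseWG-6 v2.0 arrays. The authors deposited the mean bead intensity of each of 45281 probes, not normalized, with a detection p-value per probe. The authors also deposited log2 values, which differed from the neqc values computed here by at most 0.0270. GenomeStudio and limma 3.22.1 are named in the submitters' notes on processing, and the methods name a cubic spline and the median of the probes of a gene.

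In R 4.3.3 with limma 3.58.1, neqc (offset 16) was applied to all 12 arrays. Of the probes, 19528 were kept, each having a detection p-value below 0.05 on 4 arrays or more. The platform annotation gave 1 symbol for 34885 probes, several for 18 and none for 10378, and the median of a gene's kept probes was taken. Pairs of groups were fitted on 8 arrays with lmFit and eBayes, two-sided, with Benjamini-Hochberg adjustment over 10711 genes. The fits were tested on simulated data. Replicate numbers follow the order of the samples and pair no livers. The paper describes the Cre-negative controls as littermates of the Alb-Cre mice, but the labels give no litter for any liver. Litter was not modelled, so the p-values cover only the variation among these particular livers, and precision is limited by the number of arrays.

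The 41 members and the 19 further lists were chosen with earlier results of these data known. Values per liver are given for the resident genes, up to 3 called members of each other group with the largest change between Alb-Cre and control, and members called lower. Other members are given by ranges or folds. Of other lists, up to 4 called genes with the largest change are named, and others after their values were seen. Alternatives changed the normalization, the filter, the collapsing of probes, the arrays in the fit, and chip, sex and line. The fit of females alone was added after the data were seen.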

Additional observations from a re-analysis of the deposited data

Results flagged for a closer look

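In 6 of 105 combinations of a tested member and a group of 4 livers, 1 liver stood apart from the other 3 by more than Dixon's critical gap for 4 values, where chance alone marks about 1 in 20. Control replicate 1 had the highest Ptprc of the controls, at 5.38 beside 4.18 to 4.27. Alb-Cre replicate 3 was high for Laptm5, at 11.43 beside 10.85 to 10.89, and for Fcgr3, at 8.19 beside 7.33 to 7.46. Control replicate 4 was high for Aif1, at 7.63 beside 6.75 to 6.89, and Olig1-Cre replicate 2 for Fcgr2b, at 8.30 beside 7.77 to 7.86. Control replicate 2 was low for Cd14, at 5.58 beside 6.23 to 6.28.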

How the results depend on the processing

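No paired analysis was possible because the labels carry no replicate numbers, and those used here follow the order of the samples. The cause of the changes below was not tested.

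Between Alb-Cre and control livers the count of members called higher lay between 20 and 29 under all alternatives but one. That one compared males alone, 4 Alb-Cre livers against control replicate 1 together with Olig1-Cre replicate 2, so that its reference held a Cre liver, and it gave 11, with a median of 1.01 over the members and 1.62 over the recruited genes. Leaving out 1 liver gave 27 to 29 members called higher, medians of 1.12 to 1.37, and 0.57 to 0.74 for the resident and 2.42 to 2.68 for the recruited genes. Quantiles without background correction gave medians of 0.68 for the members, 0.46 for the resident and 1.24 for the recruited genes. Scaling to 1 median gave 1.82, 1.36 and 2.90, where the median of all genes was 0.59, so that relative to all genes they were 1.23, 0.77 and 2.31. The recruited median was 2.16 with arrays scaled to 1 75th percentile, where all genes had -0.16, 2.76 with the brightest probe, 2.74 with sex as a covariate and 2.67 with controls of the same line. The members had 1.40 in the sex fit, which rests on control replicate 1, and 1.43 with controls of the same line. Without a filter on dim probes the medians were 0.96 for the members and 2.39 for the recruited genes. The resident median was 0.81 within chip 1 and 0.47 within chip 2.

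Members that were not called changed sign under some settings. Ptprc was -0.14 with the cubic spline, -0.30 with the 75th percentile, -0.12 within chip 1, -0.67 with sex as a covariate, -0.33 in males alone and -0.0676 with controls of the same line. Scaling to 1 median turned Marco to 0.35, Fcgr2b to 0.48 and Mrc1 to 0.64. Fcgr2b was 0.00662 without a filter, Itgb2 was -0.17 with the 75th percentile, and Mrc1 was 0.0981 within chip 1, 0.0651 with sex as a covariate and 0.0136 with controls of the same line.

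Between Olig1-Cre and control livers 25 members called higher became 1 within chip 1, 14 with controls of the same line and 16 by the methods' t-test. Leaving out 1 liver gave 18 to 27, with medians of 0.96 to 1.38 for the members, 0.29 to 0.59 for the resident and 2.32 to 2.74 for the recruited genes. Without background correction the medians were 0.80 for the members and 1.39 for the recruited genes. Scaling to 1 median gave 1.64 for the members and 0.99 for the resident genes, where all genes had 0.40, and no filter gave 2.10 for the recruited genes. Marco was 0.0111 without background correction, 0.45 with 1 median, 0.11 within chip 2 and 0.0878 with controls of the same line. Ptprc was -0.14 with the cubic spline, -0.31 with the 75th percentile and -0.30 within chip 1. Fcgr2b was 0.32 with 1 median and 0.0138 within chip 1, Mrc1 was 0.55 with 1 median, 0.0599 with the 75th percentile and 0.0175 within chip 1, and Msr1 was -0.0474 with the 75th percentile. When 1 liver was left out, Marco ran from -0.20 to 0.25, Mrc1 from -0.0549 to 0.0452 and Ptprc from -0.0639 to 0.34.

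Between the Cre groups 2 members were called higher with sex as a covariate, where the medians were 0.48 for the members, 0.31 for the resident and 0.76 for the recruited genes. Leaving out 1 liver gave 0 to 0 calls, with medians of -0.0826 to 0.15 for the members, -0.0794 to 0.21 for the resident and -0.12 to 0.25 for the recruited genes. Cd14 was -0.10 within chip 2 and ran from -0.12 to 0.62 when 1 liver was left out. Over all genes the alternatives called 592 to 4854 higher and 163 to 2654 lower for Alb-Cre, and 16 to 1734 higher and 0 to 1430 lower for Olig1-Cre against control. Between the Cre groups they called 0 to 114 higher and 0 to 87 lower. Signals near background limit Cd5l, Itgam, Itgax, Cybb and Ccr2, whose absence from the counts says nothing of their level.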

Other observations

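Gene groups of other cells and of cell division were counted in the same way. Against control, 19.5% of all genes were called higher in Alb-Cre and 12.8% in Olig1-Cre livers. All 7 tested genes of cell division rose in both Cre groups, with a median of 2.35 on the log2 scale in Alb-Cre and 1.39 in Olig1-Cre livers. The kinase gene Cdk1 differed by 3.02 and 2.05, Cdc20 by 2.50 and 1.46, and Aurka was at least 4.83-fold and 2.48-fold higher. Aurka and Aurkb were detected in no control liver and passed the filter only through the Cre groups. In control livers Top2a spanned 4.30 to 4.39 and Cdc20 4.38 to 4.69, close to background, so this count and median are a description. Of 11 genes of stellate cells and fibroblasts 7 rose in Alb-Cre and 2 in Olig1-Cre livers, among them the collagen gene Col1a1 (2.86 and 1.32). Of 4 cholangiocyte genes 2 rose in Alb-Cre and 1 in Olig1-Cre livers, and the duct factor Sox9 differed by 2.23 and 1.11. Col1a2 and Krt19, counted as risen in Alb-Cre livers, were detected in no control liver. Between the Cre groups 0 of the genes in these lists were called by limma.

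The list of dendritic cell genes gave 2 higher of 5 in each comparison. They were Clec9a (0.65 and 0.73) and Ly6d (6.11 and 5.60), a surface protein that epithelial cells also carry. Ly6d spanned 10.23 to 11.33 in Alb-Cre and 4.31 to 4.94 in control livers. Of 5 erythroid genes 1 fell in Alb-Cre and 2 in Olig1-Cre livers, the factor Klf1 by -1.99 and -1.56. Over all genes 15.3% and 8.47% were called lower. Of 2 tested genes of mast cells and basophils, Kit was called lower in Alb-Cre livers (-0.51).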
